A study of Mus musculus with 4 samples.

Results

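The genes described are 38 genes of microglia and macrophages, chosen by symbol: transcription factors, lineage receptors and adaptors, homeostatic microglial genes, activation genes, pattern recognition receptors, border macrophage genes and cytokines. Every array probe whose accession belongs to one of them was read, which gave 47 of the 41174 distinct probes on the array, for 36 of the 38 genes. No probe was matched to Cd68 or Clec7a, for which no array value is given, and 9 genes had more than 1 probe. RNA came from the whole brain of 3 groups of mice killed at 50 weeks of age: SAMP8 mice whose diet held whale meat extract (WME), SAMP8 mice fed the control diet with low safflower oil (LSO), and SAMR1 mice fed the LSO diet. SAMP8 is a senescence-accelerated strain with early learning and memory deficits, and SAMR1 is the senescence-resistant strain used as its control. The labels give both strains an AKR/J background with suspected outbreeding, so the groups share that origin. All mice arrived at 6 weeks, received the same chow until 24 weeks, then a powdered diet for 26 weeks, and went through 8 days of behavioural tests at 49 weeks.

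Each of 4 two-colour Agilent arrays carried a pair of RNAs. The diet pair (SAMP8 WME over SAMP8 LSO) and the strain pair (SAMP8 LSO over SAMR1 LSO) were each hybridised on 2 arrays with the dyes exchanged, first with the numerator in Cy5 and then with it in Cy3. How many mice each RNA came from is not stated in the labels, and a dye-swapped pair counts as 1 replicate, so the differences have no biological replicate check and no p-value is given. A log2 ratio is the mean of both arrays after the sign was turned for dye, with the SD over those 2 arrays, which measures technical error only. A probe is called higher or lower here where it was at least 1.5-fold so on both arrays. The technical SD of a mean log2 ratio, estimated from the dye terms of the 2 pairs, was 0.052 over all measured probes and 0.046 over the 47 member probes. Over all measured probes the mean log2 ratio had an SD of 0.092 in the diet pair and 0.20 in the strain pair. Across probes, the turned ratios of the 2 arrays correlated with r = −0.22 in the diet pair and r = 0.57 in the strain pair, so most of the spread of single diet arrays did not repeat when the dyes were exchanged.

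Microglia are the resident macrophages of the brain parenchyma. They depend on signalling through the receptor Csf1r and on the transcription factor PU.1, the product of Spi1, and they survey the tissue with purinergic and chemokine receptors. In ageing and neurodegeneration a subset lowers these homeostatic genes and raises activation genes such as Itgax and Cst7, in part through the receptor Trem2 and its adaptor Tyrobp. Macrophages of the meninges, perivascular spaces and choroid plexus form a separate population at the borders of the brain, for which Mrc1 and Cd163 are markers.

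All 47 member probes were well above background in both RNAs on both arrays of each pair. In the strain pair, 3 member probes were called higher in SAMP8 LSO brain, those of the activation genes Itgax, Cst7 and Lyz2, and none was called lower. The 3 make up 6.38% of the member probes, beside 0.911% of all measured probes called higher and 0.52% called lower. In the diet pair no member probe was called in either direction, and 0.113% of all measured probes were called higher and 0.0267% lower. In whole-brain RNA, fewer cells of a type and less RNA per cell cannot be told apart.

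**Figure D1:**
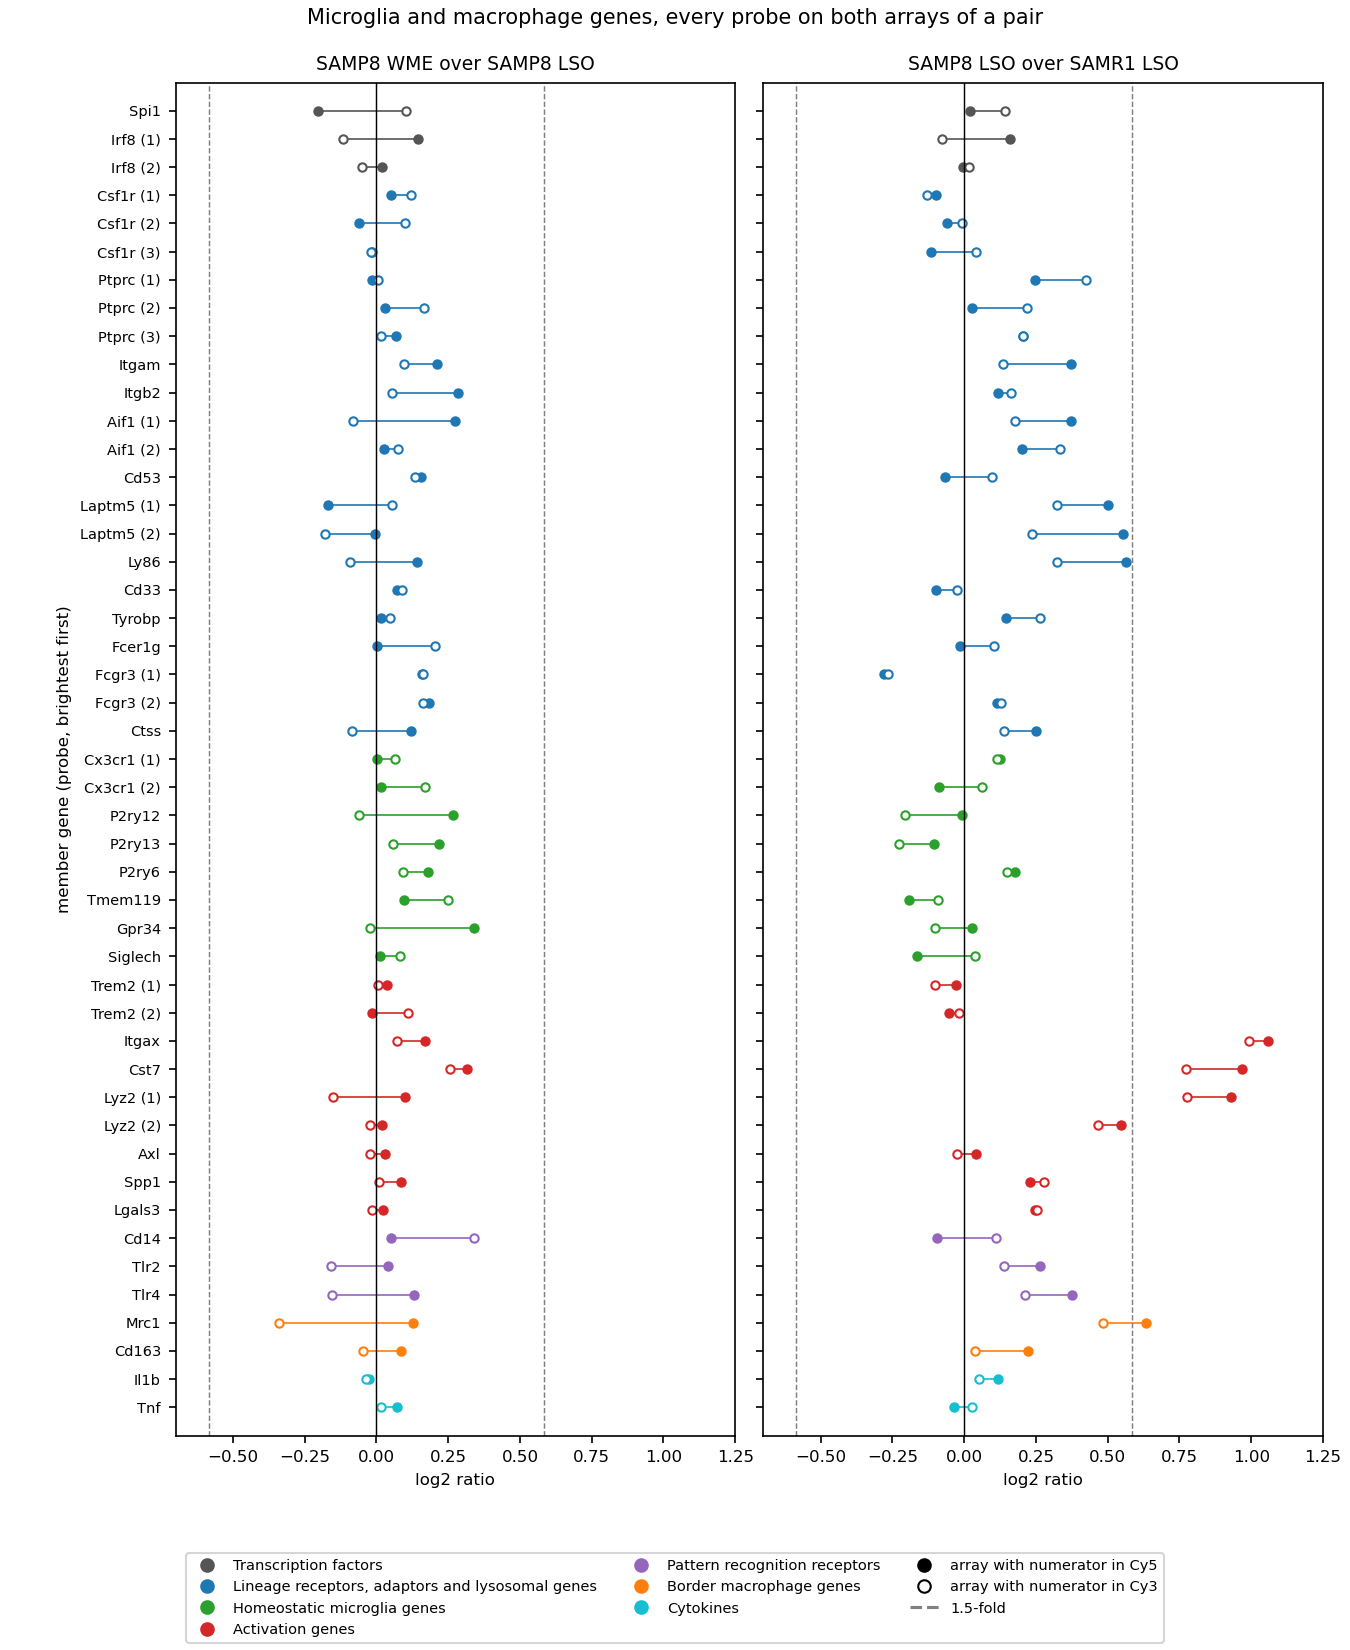
Log2 ratio of each of the 47 member probes in the diet pair (left) and the strain pair (right), with the array that carried the numerator in Cy5 as a filled point and the dye-swapped array as an open point. Dashed lines mark 1.5-fold. Itgax, Cst7 and the first Lyz2 probe lie beyond 1.5-fold on both arrays of the strain pair, and no member does so in the diet pair.

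Below 1.5-fold, ratios leaned upwards in both pairs. In the strain pair 27 of 47 member probes were above 0 on both arrays and 9 below, against 25.2% and 25.6% of all measured probes, and the median log2 ratio was 0.12, against −0.0031 over all measured probes. At 1.2-fold on both arrays, 7 probes were higher and 1 lower in SAMP8 LSO brain, against 2.67% and 1.71% of all measured probes. The lean did not rest on the called genes, since the 43 probes of the other 33 genes had a median of 0.085 with 23 above 0 on both arrays and 9 below. As for the diet, 24 of 47 member probes were above 0 on both arrays and 3 below, against 19.2% and 18.3% of all measured probes. The diet ratios were small: their median was 0.044, 46 of 47 lay within 0.2 of 0, and none passed 1.2-fold on both arrays, which 0.228% of all measured probes did upwards and 0.163% downwards. The size of the diet lean by count depended on the scaling. As reported, 24 of 47 member probes lay above the median of all probes on both arrays. With each array centred on its median in place of loess, or with the scanner's processed signals, 17 of 47 did so. Among all probes 17.5% and 18.9% did so in those 2 settings. The members' median stayed above that of all probes, at 0.065 against 0.011 with median centring and 0.049 against 0.0028 with the processed signals. Both pairs share the SAMP8 LSO RNA, as denominator in the diet pair and numerator in the strain pair, so each pair's values are given side by side and are not independent.

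The transcription factors lay near 0 in both pairs. Spi1, whose product PU.1 is required for the myeloid lineage, had normalized intensities of 101 and 116 in SAMP8 WME against 116 and 108 in SAMP8 LSO, and of 107 and 119 in SAMP8 LSO against 106 and 108 in SAMR1 LSO. Its log2 ratios were −0.20 and 0.10 in the diet pair (mean −0.05 ± 0.22, SD, n = 2 arrays) and 0.02 and 0.14 in the strain pair (0.08 ± 0.09). The Spi1 probe was dim, with a mean log2 intensity of 6.78, beside 6.61 for Il1b and 6.63 for Tnf. The offset added in background correction pulls the ratios of dim probes towards 0, so a small difference in Spi1 was not detectable. Irf8 encodes a partner of PU.1 that microglia need to mature. Its brighter probe gave 0.14 and −0.12 in the diet pair and 0.16 and −0.08 in the strain pair, and its second probe 0.02 and −0.05 in the diet pair and −0.01 and 0.02 in the strain pair. Neither gene kept 1 sign in the diet pair, and the means of their 3 probes stayed between 0.01 and 0.08 in the strain pair.

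Because PU.1 and Irf8 bind in the promoters of many myeloid genes, the promoters of the 3 called genes are printed, from 250 bases before to 50 after the gene start, with that of Ctss, a lysosomal gene chosen after its sequence was seen because it holds 2 of the motifs searched. The sequences are RefSeq's of GRCm38.p6, 5′ to 3′ on the gene's strand, and capitals mark motif matches. Cst7 lies at chr2:150570165-150570464 (+), Itgax at chr7:128129300-128129599 (+), Lyz2 at chr10:117282223-117282522 (−) and Ctss at chr3:95526536-95526835 (+).
Cst7: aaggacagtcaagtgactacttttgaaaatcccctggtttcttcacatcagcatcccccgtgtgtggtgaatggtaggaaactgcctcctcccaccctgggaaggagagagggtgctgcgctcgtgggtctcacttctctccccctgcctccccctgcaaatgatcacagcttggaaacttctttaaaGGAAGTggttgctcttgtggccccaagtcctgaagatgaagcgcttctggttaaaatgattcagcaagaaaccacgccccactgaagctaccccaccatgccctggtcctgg
Itgax: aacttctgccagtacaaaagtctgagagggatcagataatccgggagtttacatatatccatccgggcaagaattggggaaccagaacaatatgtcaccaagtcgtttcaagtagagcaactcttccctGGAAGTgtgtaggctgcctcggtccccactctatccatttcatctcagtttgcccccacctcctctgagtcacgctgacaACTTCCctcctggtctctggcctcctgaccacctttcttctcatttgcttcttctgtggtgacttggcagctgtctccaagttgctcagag
Lyz2: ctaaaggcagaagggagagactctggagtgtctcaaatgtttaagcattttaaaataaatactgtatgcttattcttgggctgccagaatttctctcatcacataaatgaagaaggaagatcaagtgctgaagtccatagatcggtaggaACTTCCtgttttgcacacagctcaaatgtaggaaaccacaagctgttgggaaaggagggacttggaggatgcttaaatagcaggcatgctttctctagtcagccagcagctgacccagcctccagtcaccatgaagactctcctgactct
Ctss: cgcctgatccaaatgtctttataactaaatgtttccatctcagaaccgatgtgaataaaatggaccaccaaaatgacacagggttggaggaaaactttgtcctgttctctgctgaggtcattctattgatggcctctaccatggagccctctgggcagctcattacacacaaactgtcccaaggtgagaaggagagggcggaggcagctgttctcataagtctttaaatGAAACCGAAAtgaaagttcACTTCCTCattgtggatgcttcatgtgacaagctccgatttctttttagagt
Promoters were found for 29 of the 38 genes (34 promoters). The motifs searched on both strands were GAGGAAGT for PU.1, the composite motif of PU.1 with an interferon regulatory factor, and the interferon response motif. Each was found in 3 of the 34 member promoters (8.82%), and in 3.20%, 2.72% and 3.44% of all 32851 promoters of that length. By gene, the PU.1 motif is in Cd53, Ctss and Spp1 and the interferon response motif in Aif1, Ctss and Spp1. The composite motif is in Cd68 and Clec7a alone, the genes without a probe, with Clec7a counted for 2 promoters, which makes 2 of 29 member genes (6.90%) beside 3.16% of all genes. None of these 3 motifs is in the windows of Cst7, Itgax or Lyz2. The Ctss window holds a match to the interferon response motif, GAAACCGAAA, at position −21 and ACTTCCTC, the PU.1 motif on the other strand, at −2 from the gene start. The shorter letters GGAAGT, which lie within the PU.1 motif and were added after the sequences were seen, are in 17 of the 34 member promoters (50.0%) and in 23.8% of all promoters. They stand in Cst7 at −62, in Itgax at −121 and, on the other strand, at −41, and in Lyz2 at −100 on the other strand. These matches describe letters only. Because GGAAGT was added after the sequences were seen, its share among member promoters is not a test of PU.1 sites.

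The homeostatic genes had the highest median among the roles in the diet pair, 0.12, and the only negative median in the strain pair, −0.05. Of their 8 probes, 6 were above 0 on both arrays of the diet pair and none below, and 2 were above and 3 below in the strain pair. No probe reached 1.2-fold on both arrays in either pair. Both medians kept their sign under each other normalization and filter tried.

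Tmem119, a surface protein found on microglia and little on other macrophages, had intensities of 2247 and 2352 in SAMP8 WME against 2103 and 1979 in SAMP8 LSO, and of 1920 and 2097 in SAMP8 LSO against 2193 and 2236 in SAMR1 LSO. The array readings of the paired RNAs did not overlap within either pair. Over all measured probes, 19.2% were above 0 on both arrays of the diet pair and 25.6% below 0 on both arrays of the strain pair. Its log2 ratios were 0.10 and 0.25 in the diet pair (0.17 ± 0.11) and −0.19 and −0.09 in the strain pair (−0.14 ± 0.07).

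The purinergic receptors sense nucleotides released by nearby cells. P2ry12, which steers microglial processes towards ATP and ADP, gave 0.27 and −0.06 in the diet pair and −0.01 and −0.20 in the strain pair, so its diet ratio changed sign with the dyes. P2ry13 gave 0.22 and 0.06 in the diet pair (0.14 ± 0.11) and −0.11 and −0.23 in the strain pair (−0.17 ± 0.09). P2ry6, a receptor for UDP that promotes phagocytosis, differed from these in the strain pair: it was above 0 on all 4 arrays, with 0.18 and 0.09 in the diet pair and 0.18 and 0.15 in the strain pair.

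Among the other homeostatic genes, Cx3cr1, the receptor for the neuronal chemokine fractalkine, gave 0.00 and 0.07 in the diet pair and 0.12 and 0.12 in the strain pair with its brighter probe. Its second probe gave 0.02 and 0.17 in the diet pair and −0.09 and 0.06 in the strain pair, so its probes did not share a sign in the strain pair. Gpr34, a receptor for lysophosphatidylserine, had 0.34 and −0.02 in the diet pair and 0.03 and −0.10 in the strain pair. Siglech, a sialic acid-binding lectin, had 0.01 and 0.08 in the diet pair and −0.16 and 0.04 in the strain pair. Gpr34 and Siglech therefore had no single sign on the strain arrays.

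The activation genes split. Their median log2 ratio was 0.25 in the strain pair, with 6 of 9 probes above 0 on both arrays, 2 below and 3 called higher. The diet pair had a median of 0.02, with 4 of 9 above 0 on both arrays and none below.

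Itgax encodes the integrin CD11c, a marker of dendritic cells and of activated microglia. Its intensities were 353 and 347 in SAMP8 WME against 313 and 330 in SAMP8 LSO, and 319 and 274 in SAMP8 LSO against 153 and 138 in SAMR1 LSO. Both SAMP8 LSO values lay far above both SAMR1 values. The log2 ratio in the strain pair was 1.06 and 0.99, a mean of 1.03 ± 0.05 or 2.04-fold, the highest of the 36 genes, while the diet pair gave 0.17 and 0.07 (0.12 ± 0.07).

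Cst7 encodes cystatin F, an inhibitor of lysosomal cathepsins. Its intensities were 261 and 262 in SAMP8 WME against 210 and 219 in SAMP8 LSO, and 222 and 176 in SAMP8 LSO against 113 and 103 in SAMR1 LSO. It was the highest member of the diet pair and second in the strain pair. The log2 ratio was 0.31 and 0.26 in the diet pair (0.29 ± 0.04, 1.22-fold) and 0.97 and 0.77 in the strain pair (0.87 ± 0.14, 1.83-fold). Dim probes are pulled towards 0 by the background offset of 50. With the scanner's processed signals Cst7 was 2.89-fold and Itgax 2.74-fold higher in the strain pair. The mean diet log2 ratios with those signals were 0.42 for Cst7 and 0.09 for Itgax. For Cst7 the mean diet log2 ratio was 0.37 with offset 0 and 0.24 with local backgrounds as deposited. Whether Cst7 passed 1.2-fold on both diet arrays was checked with the reported normalization only.

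Lyz2 encodes lysozyme M of macrophages, monocytes and neutrophils. Its brighter probe had intensities of 10885 and 9635 in SAMP8 WME against 10158 and 10698 in SAMP8 LSO, and of 11290 and 10263 in SAMP8 LSO against 5934 and 5990 in SAMR1 LSO. The array readings of the WME and LSO RNAs overlapped, and those of the SAMP8 LSO and SAMR1 LSO RNAs did not. The strain ratio was 0.93 and 0.78 (0.85 ± 0.11, 1.81-fold) and the diet ratio 0.10 and −0.15 (−0.03 ± 0.18). A second probe gave 0.55 and 0.47 in the strain pair (0.51 ± 0.06), higher on both arrays but below 1.5-fold. Lyz1, a near-identical copy beside Lyz2, was also called higher in the strain pair at 0.76 and 0.81, so how much of the signal belongs to each gene is uncertain.

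**Figure D2:**
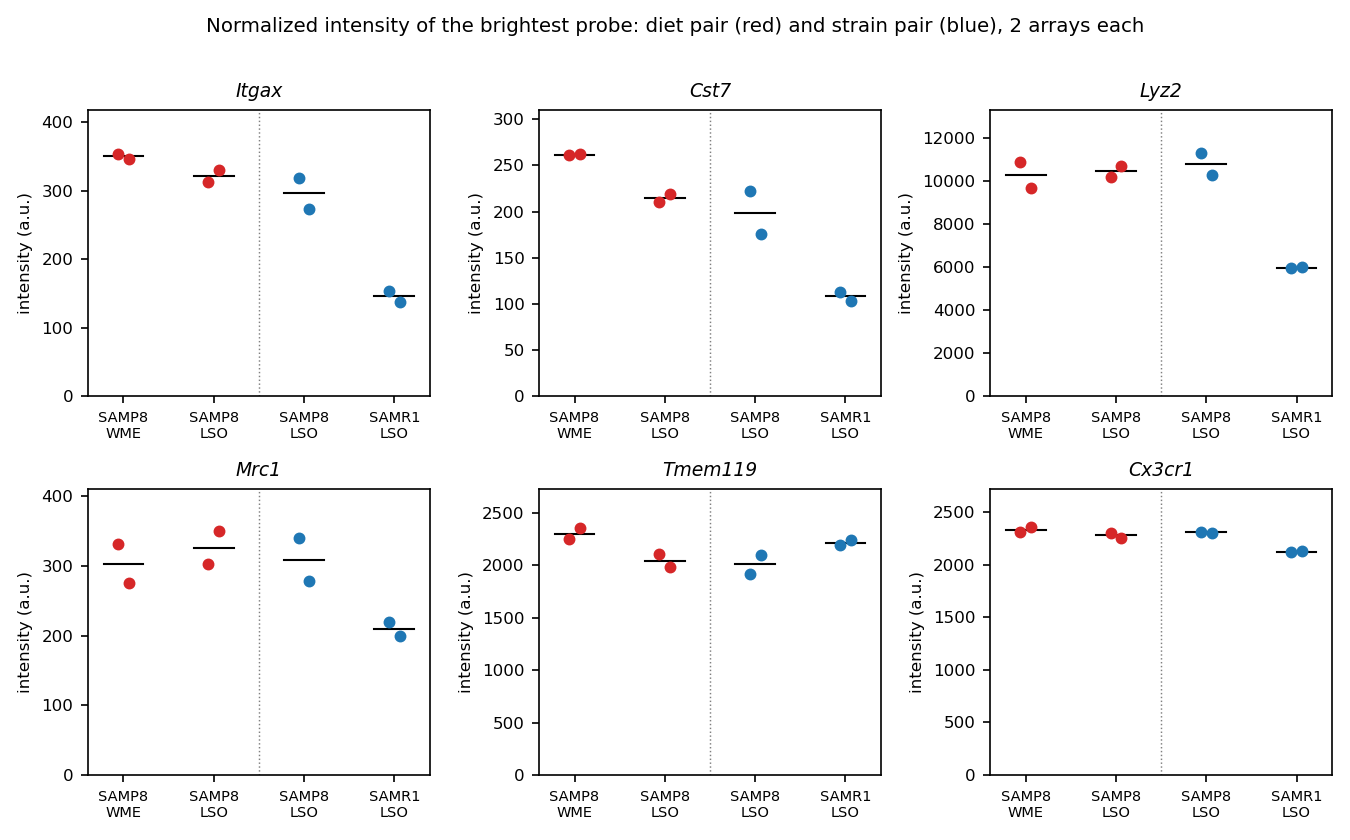
Normalized intensity (arbitrary units, with the offset of 50) of the brightest probe of 6 members in each RNA, with 1 point per array and a bar at the mean, for the diet pair in red and the strain pair in blue. Itgax, Cst7, Lyz2 and Mrc1 are higher in SAMP8 LSO than in SAMR1 LSO on both arrays, and Tmem119 is lower. Mrc1, Tmem119 and Cx3cr1 were picked for the plot after their values were seen.

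The other activation genes varied less. Spp1, the secreted protein osteopontin, gave 0.23 and 0.28 in the strain pair (0.25 ± 0.03), and Lgals3, the lectin galectin-3, gave 0.25 and 0.25. Spp1 averaged 0.05 and Lgals3 0.00 in the diet pair. Axl, a receptor for phosphatidylserine bridging proteins, averaged 0.00 in the diet pair and 0.01 in the strain pair. Trem2, the lipid-sensing receptor that many activation genes depend on, was slightly below 0 on both arrays of the strain pair with both probes, averaging −0.06 and −0.04, and averaged 0.02 and 0.05 in the diet pair. Within this role, Trem2 and Axl lay near 0 where Itgax, Cst7 and Lyz2 were called higher.

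**Figure D3:**
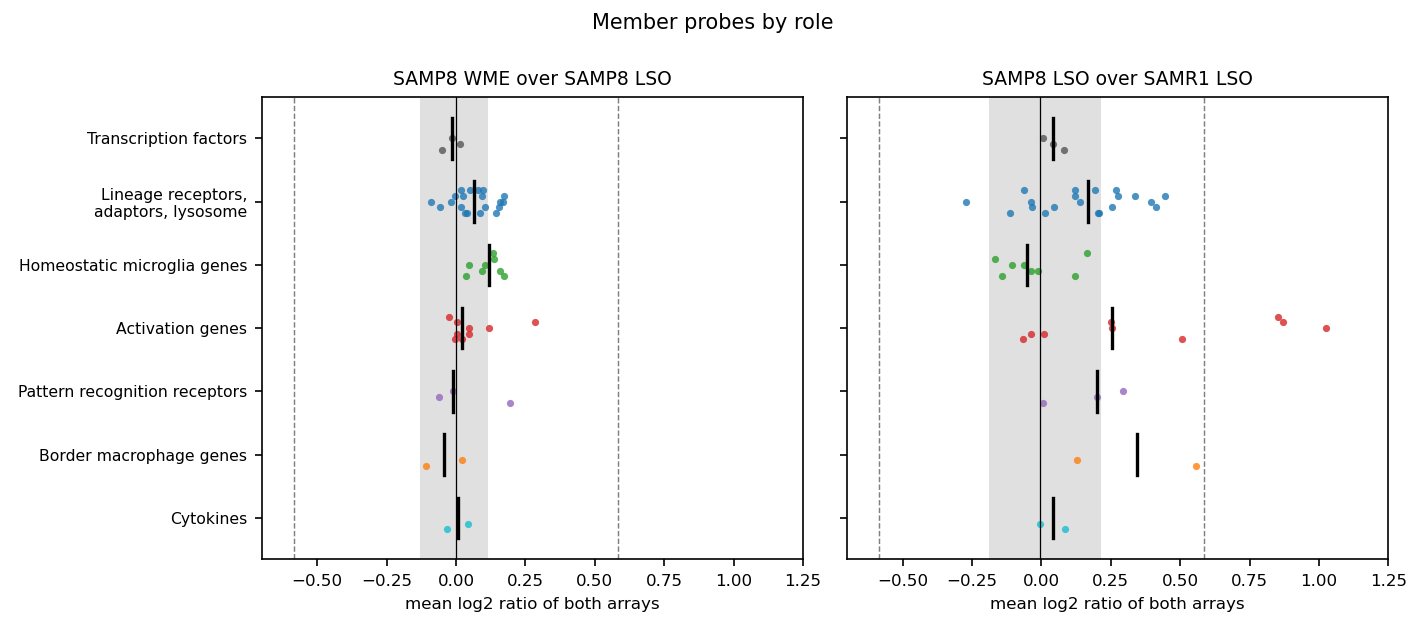
Mean log2 ratio of both arrays for each member probe, by role, in the diet pair (left) and the strain pair (right). Short bars are medians, the grey band holds the central 90% of all measured probes, and dashed lines mark 1.5-fold. In the strain pair the homeostatic genes have a median of −0.05, with 2 of 8 probes above 0 on both arrays and 3 below. The activation genes have 0.25, with 6 of 9 above and 2 below.

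The lineage genes, shared by microglia and other myeloid cells, had a median of 0.07 in the diet pair (12 of 20 probes above 0 on both arrays, 2 below) and 0.17 in the strain pair (13 above, 4 below). Ly86, the partner of a Toll-like receptor homologue, gave 0.56 and 0.32 in the strain pair (0.44 ± 0.17) and averaged 0.03 in the diet pair. Laptm5, a lysosomal membrane protein, gave 0.50 and 0.33 with its brighter probe and 0.55 and 0.24 with its other probe in the strain pair. Laptm5 was among the 3 lowest genes of the diet pair, with −0.17 and 0.06 for the brighter probe (−0.06 ± 0.16). Ly86 and Laptm5 were the lineage genes past 1.2-fold upwards on both arrays of the strain pair, Laptm5 with its brighter probe only.

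Several surface and adaptor genes followed the same direction at smaller ratios in the strain pair. Ptprc, the leukocyte phosphatase CD45, averaged 0.34, 0.12 and 0.21 with its 3 probes, and Aif1, the calcium-binding protein Iba1 used to stain microglia, averaged 0.28 and 0.27. Itgam and Itgb2, which form the complement receptor CR3, averaged 0.25 and 0.14. Tyrobp, the adaptor of Trem2, averaged 0.20, and the cathepsin gene Ctss 0.19. All of these probes were above 0 on both arrays of the strain pair. Their diet means ran from −0.0037 for the brightest Ptprc probe to 0.17 for Itgb2, with Itgam at 0.15.

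Other lineage genes lay near or below 0 in the strain pair. Csf1r, the receptor for colony-stimulating factor 1 and interleukin-34, averaged −0.11, −0.03 and −0.04 with its 3 probes, and its brightest probe gave −0.10 and −0.13. Cd33, an inhibitory lectin, averaged −0.06, while the tetraspanin Cd53 averaged 0.01 and the signalling chain Fcer1g 0.05. On the diet arrays the brightest Csf1r probe averaged 0.09, Cd33 0.08, Cd53 0.14 and Fcer1g 0.10. So the receptor that maintains microglia did not share the direction of CD45 and Iba1 in the strain pair.

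Fcgr3, a low-affinity receptor for immunoglobulin G, was the lowest member of the strain pair by its brightest probe, with intensities of 1894 and 1879 in SAMP8 LSO against 2300 and 2256 in SAMR1 LSO. The log2 ratio was −0.28 and −0.26 (−0.27 ± 0.01), and it was the only member probe past 1.2-fold downwards. Its other probe gave 0.11 and 0.13 in the same pair, a difference of 0.39 between the probes and the largest among the 9 genes with several. Its probes matched in the diet pair, at 0.16 and 0.17. Fcgr3 has closely related family members, and its direction in the strain pair is uncertain.

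The pattern recognition receptors had medians of −0.01 in the diet pair and 0.20 in the strain pair. Tlr4, the receptor for lipopolysaccharide, gave 0.38 and 0.21 in the strain pair (0.29 ± 0.12) and Tlr2, a receptor for bacterial lipoproteins, 0.26 and 0.14 (0.20 ± 0.09). Their co-receptor Cd14 gave −0.09 and 0.11 there. Cd14 was second highest of the 36 genes in the diet pair, with intensities of 905 and 931 in SAMP8 WME against 875 and 736 in SAMP8 LSO and log2 ratios of 0.05 and 0.34 (0.19 ± 0.20). Tlr2 was second lowest, with 0.04 and −0.16 (−0.06 ± 0.14), and Tlr4 averaged −0.01. Each of these diet ratios differed between the dye orientations by more than its own mean.

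The border macrophage genes Mrc1 and Cd163 were both above 0 on both arrays of the strain pair. Mrc1, the mannose receptor CD206, had intensities of 331 and 276 in SAMP8 WME against 303 and 350 in SAMP8 LSO, and of 340 and 278 in SAMP8 LSO against 219 and 199 in SAMR1 LSO. It was the fourth highest gene of the strain pair at 0.63 and 0.49 (0.56 ± 0.10, 1.47-fold) and the lowest of the diet pair at 0.13 and −0.34 (−0.11 ± 0.33), where the dye orientations disagreed. With the processed signals or without the offset, Mrc1 was also called higher in the strain pair, at 0.74 and 0.69. Cd163, the scavenger receptor for haemoglobin with haptoglobin, gave 0.22 and 0.04 in the strain pair (0.13 ± 0.13) and 0.09 and −0.05 in the diet pair (0.02 ± 0.09).

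The cytokines stayed close to 0. Il1b, interleukin-1 beta, had intensities of 98 and 102 in SAMP8 WME against 100 and 105 in SAMP8 LSO, and of 102 and 92 in SAMP8 LSO against 94 and 89 in SAMR1 LSO. Its log2 ratios were −0.03 and −0.04 in the diet pair and 0.12 and 0.05 in the strain pair. Tnf gave 0.07 and 0.02 in the diet pair and −0.04 and 0.03 in the strain pair. Both probes were dim, where the offset pulls a ratio towards 0, so a small difference in these cytokines was not detectable.

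Gene lists around the members, chosen with earlier results of these data known, placed these values in their pathways. Among 15 other homeostatic microglia genes (20 probes), 10 probes were above 0 on both arrays of the strain pair and 5 below, with a median of 0.15, and 1 was called. That gene was Slc2a5, the fructose transporter of microglia, at 1.66 and 1.56 (3.05-fold). Mertk, a phagocytic receptor kinase, and Selplg, a selectin ligand, were the lowest of the list, both at −0.29 by their lowest probe. The list's strain median of 0.15 did not share the sign of the homeostatic members' median, −0.05. Under the diet the list had a median of 0.01, with 3 probes above and 2 below 0 on both arrays, a smaller share than the 6 of 8 among the homeostatic members.

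Other genes of the disease-associated state, a set that includes Lpl and Cd9, gave no call: 11 of 21 probes were above 0 on both arrays of the strain pair and 3 below, with a median of 0.08. Their highest was Cd9, a tetraspanin, at 0.26, and their lowest the chemokine Ccl6 at −0.20. The diet median was 0.01. The strain ratios of Itgax and Cst7 were larger than any in that list.

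The other border macrophage genes leaned one way in the strain pair, with all 12 measured probes above 0 on both arrays and a median of 0.25, though none was called. The highest was F13a1, a coagulation factor subunit, at 0.58 and 0.64, and the lowest Dab2, an endocytic adaptor, at 0.09. On both diet arrays 4 of 12 were above and 2 below 0, with a median of 0.01. There the extremes were Lyve1, the hyaluronan receptor, at 0.32 and Cbr2, a carbonyl reductase, at −0.18.

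Signalling lists lay nearer 0. Kinases and adaptors downstream of Tyrobp and Fcer1g had medians of 0.03 in the diet pair and 0.01 in the strain pair over 13 probes. Ligands and partners of microglial receptors, such as Csf1, Il34 and Cx3cl1, had medians of 0.04 in the diet pair and −0.02 in the strain pair over 14 probes. Toll-like receptor, interleukin-1 and TNF signalling genes had medians of 0.00 in the diet pair and 0.04 in the strain pair over 19 measured probes. None of these lists held a called probe.

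**Figure D4:**
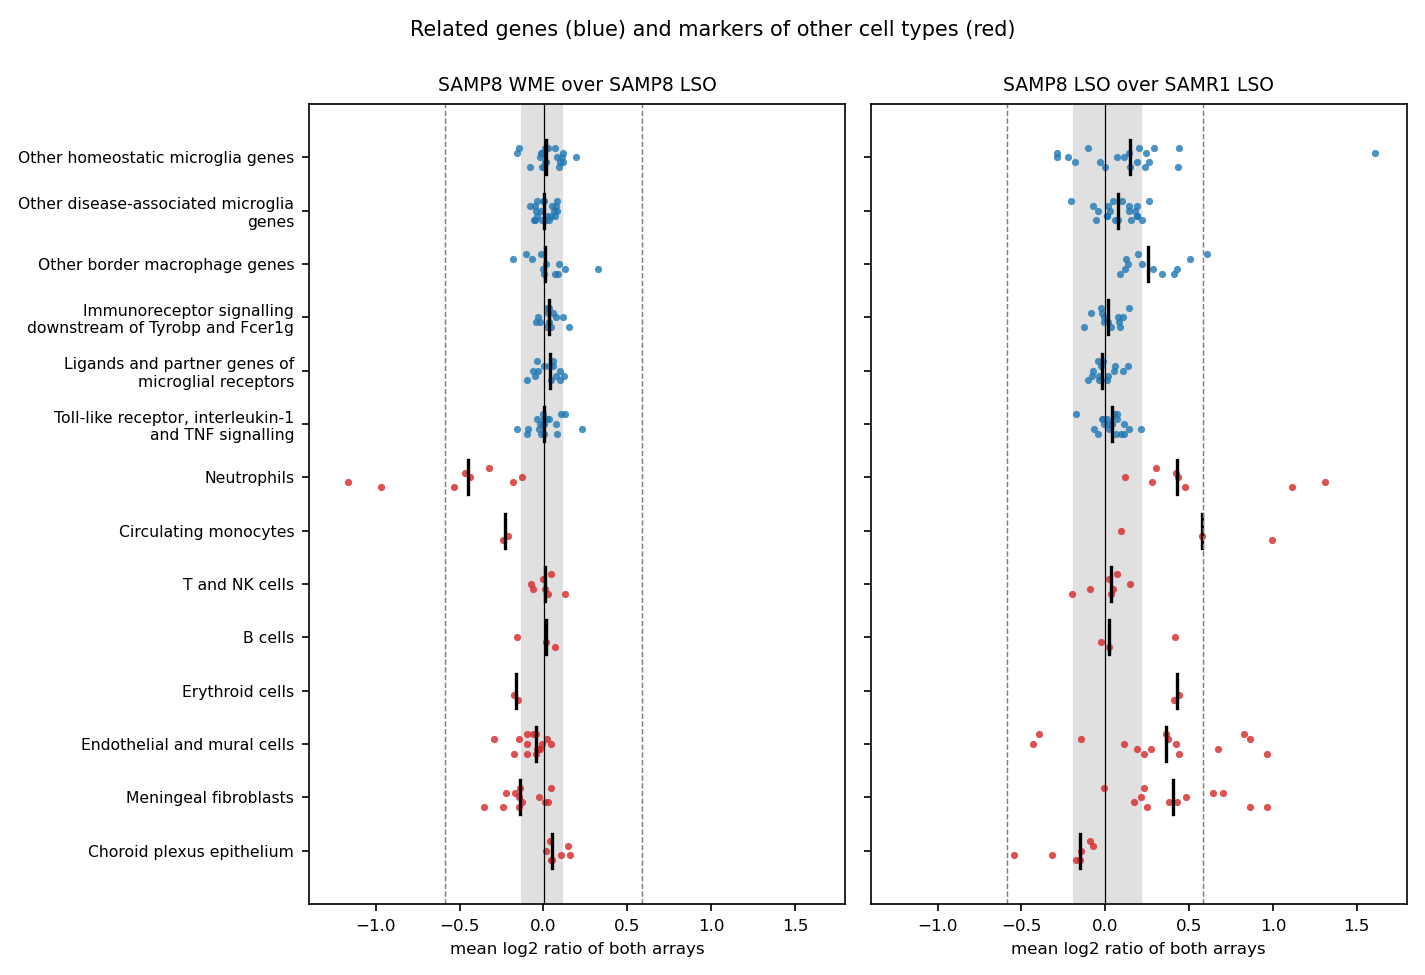
Mean log2 ratio of both arrays for probes of related lists (blue) and of marker lists of other cell types (red), in the diet pair (left) and the strain pair (right). Bars are medians, the grey band holds the central 90% of all measured probes, and dashed lines mark 1.5-fold. The neutrophil list is below 0 in the diet pair (median −0.45) and above 0 in the strain pair (median 0.43).

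Marker lists of several other cell types lay above 0 in the strain pair, as the members' median did, and below 0 in the diet pair, where the members' median was above 0. The same SAMP8 LSO RNA is numerator in the strain pair and denominator in the diet pair. Opposite signs in these pairs, here and in the lists below, are therefore not independent. All 8 measured probes of the neutrophil list were above 0 on both arrays of the strain pair (median 0.43) and below 0 on both arrays of the diet pair (median −0.45). S100a8 and S100a9, the calprotectin subunits, were called in both pairs: S100a8 averaged −0.97 in the diet pair and 1.11 in the strain pair, and S100a9 −1.16 and 1.31 in those pairs. The summed intensity of the list was 1400 and 1415 in SAMP8 WME against 2431 and 2550 in SAMP8 LSO, and 2442 and 2440 in SAMP8 LSO against 1312 and 1295 in SAMR1 LSO. Such a sum takes the brightest probe of each gene, dim probes included, so bright genes weigh most. Mean log2 intensity was 9.76 for S100a9 and 8.04 for S100a8, and the next, Mpo, had 7.60. With the processed signals the list's median was −1.24 in the diet pair and 1.16 in the strain pair. Lyz2, which neutrophils also express, averaged 0.85 in the strain pair and −0.03 in the diet pair with its brighter probe. The part of neutrophils in these values was not tested. Elane, a neutrophil protease, was not well above background in any RNA.

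Of the circulating monocyte list, Plac8 was called higher in the strain pair at 1.07 and 0.91, and Ccr2, which marks inflammatory monocytes, was not well above background in any RNA. That list's summed intensity was 504 and 506 in SAMP8 WME against 575 and 556 in SAMP8 LSO, and 553 and 639 in SAMP8 LSO against 381 and 464 in SAMR1 LSO. Both of its probes measured in the diet pair were below 0 on both arrays (median −0.23). Many vascular and meningeal markers were also higher in SAMP8 LSO brain: 4 of 15 endothelial and mural probes were called higher (Kcnj8 with 2 probes, Pdgfrb and Rgs5, all mural genes), and so were 4 of 12 meningeal fibroblast probes (Col3a1, Col1a1, Col1a2 and Ogn). Over all measured probes, 0.911% were called higher and 0.52% lower in that pair. The mural gene Abcc9 went the other way, with its 3 probes at −0.43, −0.14 and −0.40 and below 0 on both arrays, 2 of them past 1.2-fold lower. The other probe of Col3a1 averaged −0.0075 in the strain pair and the other probes of Col1a1 0.17 and 0.48, without a call. On the diet arrays 6 of the 15 endothelial and mural probes were below 0 on both and 2 above (median −0.04), and 8 of the 12 meningeal probes were below and 1 above (median −0.14). The summed intensity of the meningeal list was 31485 and 32630 in SAMP8 WME against 34295 and 34067 in SAMP8 LSO, and 33600 and 34204 in SAMP8 LSO against 25719 and 25173 in SAMR1 LSO. That of the endothelial and mural list was 20776 and 21625 in SAMP8 WME against 24989 and 22533 in SAMP8 LSO, and 23057 and 25432 in SAMP8 LSO against 17892 and 17098 in SAMR1 LSO. The brightest genes of that sum were Cldn5 and Flt1, at mean log2 intensities of 12.87 and 12.71, and Cldn5 gave −0.60 and 0.01 on the diet arrays. The part of monocytes and of vascular and meningeal cells in the ratios of Itgax, Lyz2, Mrc1 and the border macrophage genes was not tested.

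The remaining lists varied in size and direction. Astrocyte probes had medians of −0.11 in the diet pair and 0.13 in the strain pair, and Gfap, the astrocyte filament protein, averaged 0.55 in the strain pair. Both measured erythroid probes were above 0 on both arrays of the strain pair (median 0.43) and below 0 on both arrays of the diet pair (median −0.17). Choroid plexus probes had medians of 0.05 in the diet pair and −0.15 in the strain pair, T and NK cell probes 0.01 and 0.04, B cell probes 0.01 and 0.02, neurons 0.00 and −0.02, and oligodendrocytes −0.03 and −0.04, in the same order of pairs. Strain means ran from −0.55 for Aqp1 to −0.07 among choroid plexus probes and from −0.03 to 0.42 for Cd79b among B cell probes. They ran from −0.20 to 0.15 for T and NK cells, −0.10 to 0.11 for neurons and −0.37 to 0.24 for oligodendrocytes.

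Genes next to the 3 called members on the chromosome were looked up after the calls were known. On chromosome 7 Itgam, beside Itgax, averaged 0.25 in the strain pair and Cox6a2, on its other side, −0.44. The 10 nearest measured genes around Cst7 on chromosome 2 averaged between −0.11 and 0.09, and those around Lyz2 on chromosome 10, other than Lyz1, between −0.07 and 0.06.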

How the data were processed

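Whole-brain RNA of 3 groups was read on 4 two-colour arrays, which shared 1 slide, so slide and scan could not be compared as batches. The deposited scanner files hold raw median foreground and background intensity per spot, written by version 11.0.1.1 of Agilent Feature Extraction, per the submitters' processing notes and the file headers. The log10 ratios in those files were made by the authors from processed signals, per the file headers, and were not used. The deposited series table holds log2 ratios of red over green processed signal, neither turned for dye nor centred again. Its values matched the scanner files on every array.

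From these files, intensities were background-corrected with normexp (offset 50) and normalized by loess within each array with limma 3.58.1 under R 4.3.3, giving control spots no weight. The 105 to 123 spots per array marked as outliers were left out, and spots of a probe were averaged. On 1 diet array, 6 spots per channel with very high local background distorted the normexp fit. Local backgrounds over 2 times the array's median were therefore replaced by that median, a departure from the planned setting made after the files were seen. A probe was measured when well above background in at least 1 RNA on both arrays of a pair. Accessions were looked up in RefSeq's gene table of GRCm38.p6, which named 23374 of 41174 probes. That table gave names and neighbours only, since the array files name another build. With 4 arrays and 1 RNA per group, the number of arrays limits the precision. The calls were tested on simulated arrays with known changes in brighter probes. Its pass mark covered only the largest of those changes and unchanged probes. Changes near 1.5-fold, or in dim probes such as that of Cst7, were therefore not checked by it. Members and gene lists were chosen with earlier results of these data known. Given with all array values are called members, the 3 highest and 3 lowest by their brightest probe in each comparison, and all transcription factors, homeostatic genes, border macrophage genes and cytokines. Members whose probes differed by 0.5 would have been added, and there were none. Of other lists with called probes, the called genes (at most 4) are named. Of the other disease-associated and border macrophage lists, the highest and lowest of the strain pair are named. Of the signalling lists and the remaining lists of other cells, few genes or none are named.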

Additional observations from a re-analysis of the deposited data

How the results depend on the processing

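With each of the other settings tried, the 3 members called higher in SAMP8 LSO brain stayed called, and no named probe that was called turned its sign. No member was called in the diet pair at 1.5-fold, or at 1.2-fold, which was tried with the reported normalization only. At 1.2-fold in the strain pair, 7 member probes were higher and 1 lower, 6 related probes were higher and 1 lower, and 25 probes of other cell types were higher and 3 lower, with 1 related probe higher and 7 probes of other cell types lower in the diet pair. With Feature Extraction's processed signals, the strain pair had 3 related probes called higher, 18 probes of other cell types higher and 2 lower, and the diet pair 7 of those lower. With offset 0, 2 related probes were higher and 2 probes of other cell types lower in the strain pair, and 5 probes of other cell types lower in the diet pair. Calls over all measured probes also rose with the processed signals and with offset 0. In the strain pair they were 560 higher and 362 lower with the processed signals and 450 and 250 with offset 0. As reported, they were 310 and 177. In the diet pair, 45 were lower with the processed signals and 17 with offset 0, against 9 as reported. Without background subtraction, 2 related probes were higher in the strain pair. With the brightest probe of a gene alone, 1 member was below 0 on both diet arrays.

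List medians moved as follows beyond the SD between both arrays. With median centring, the diet medians were 0.065 for all members, 0.075 for lineage, 0.058 for activation and −0.47 for neutrophil genes, and the strain medians 0.11 for all members and 0.13 for lineage genes. With the processed signals, the diet median of neutrophil genes was −1.24, and the strain medians were 0.14 for all members, 0.20 for lineage, −0.075 for homeostatic, 0.46 for other border macrophage and 1.16 for neutrophil genes. With offset 0, they were 0.084 for lineage and −0.93 for neutrophil genes in the diet pair, and 0.15 for all members, 0.20 for lineage, 0.34 for other border macrophage and 0.81 for neutrophil genes in the strain pair. Without background subtraction, diet medians were 0.06 for lineage and −0.43 for neutrophil genes. With local backgrounds as deposited, a setting added after the data were seen, they were 0.052 and −0.32, and 19 probes in all were called higher in the diet pair, against 38 as reported. The brightest probe alone gave 0.087 for lineage and −0.47 for neutrophil genes in the diet pair, and 0.195 for lineage, −0.064 for homeostatic and 0.35 for other border macrophage genes in the strain pair. Other border macrophage genes had 0.29 with both RNAs above background and 0.22 with no filter on dim probes, where neutrophil genes in the diet pair had −0.44. The cause of these shifts was not tested.

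With 1 array at a time, where dye bias is not cancelled, 29 to 39 member probes were above 0 and 8 to 18 below in the diet pair, and 12 to 17 below in the strain pair. Called related probes numbered 0 to 1 higher and 0 to 1 lower in the diet pair, and 3 to 4 higher and 0 to 1 lower in the strain pair, with 0 to 1 probe of other cell types lower there. Diet medians were 0.048 to 0.067 for all members, 0.060 to 0.065 for lineage, 0.074 to 0.14 for homeostatic, 0.011 to 0.050 for other border macrophage and −0.45 to −0.44 for neutrophil genes. Strain medians were 0.119 to 0.127 for all members, 0.13 to 0.15 for lineage, −0.048 to −0.028 for homeostatic, 0.248 to 0.277 for activation and 0.220 to 0.225 for other border macrophage genes.

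No paired analysis was possible because each comparison has 1 RNA per group, and its 2 arrays are a dye swap of the same RNAs.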
